A study of Mus musculus with 6 samples.

Results

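Cytochrome P450 enzymes are heme proteins, most of them anchored in the endoplasmic reticulum, that insert an oxygen atom into foreign compounds, steroids, fatty acids and vitamins. The microsomal enzymes receive electrons from NADPH through the reductase Por and, for some reactions, through cytochrome b5. The liver makes the largest amounts of the enzymes that clear drugs, and nuclear receptors set the transcription of many of them: AHR is known for Cyp1a genes, CAR and PXR for Cyp2b and Cyp3a genes, PPARalpha for Cyp4a genes and retinoic acid receptors for Cyp26a1.

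The genes described here are those with a probe set of 1 gene symbol starting with Cyp and a digit, without the Cyp2c genes and without Cyp7a1, Cyp7b1, Cyp8b1, Cyp27a1 and Cyp51. They were 28 genes on 33 of the 11778 probe sets other than controls, out of 7163 genes with such a probe set. Por belongs to the rule but had no probe set under that symbol in the table used here and was not analysed here. A further 3 P450 probe sets carried several symbols and were left out. The 28 genes fell into 16 subfamilies, a subfamily being the family number and letter of the symbol.

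Liver RNA came from 3 samples labelled ATP7B KO mouse (KO903, KO904 and KO905) and 3 labelled wt or WT mouse (WT4, WT5 and WT6), each on 1 Affymetrix array. Atp7b encodes a pump that loads copper into secreted proteins and bile, and in humans its loss leads to Wilson disease. The knockout is a line from an earlier publication cited in the labels, and the series title places the livers early in copper accumulation. The labels give no strain, sex, age, diet or hour of sampling, and since they do not state that every sample is its own animal, the p-values cover only the variation among these 6 samples, which may be technical. The source label of WT6 speaks of mice in the plural, and whether its RNA was pooled is not given.

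Array medians lay between 330.8 and 342.8 signal units, and arrays correlated at 0.976 or more within a group and at 0.974 or less between groups (Pearson r of log2 signals). The hepatocyte markers Alb, Apoa1, Ttr, Ahsg and Fgb had summed signals of 98130 to 119600 in knockout livers and 105200 to 124100 in wild-type livers. The single Atp7b probe set read 219.1 ± 29.9 in knockout and 266.6 ± 30.1 in wild-type livers (SD, n = 3 each; limma adjusted p = 0.407), and its position relative to the gene's disruption was not determined, so it checks no label. All differences below are knockout minus wild type on log2(signal + 16), where a difference of 1 is a 2-fold change, from a limma fit over 10620 probe sets with a mean signal of at least 100. A gene was called at an adjusted p under 0.05 over all tested probe sets, and the brightest probe set (by mean over 6 arrays) represented a gene measured by several.

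Most P450 transcripts outside Cyp2c differed little between Atp7b knockout and wild-type liver. Of the 27 tested genes, Cyp2d9 rose and Cyp26a1 and Cyp2f2 fell, while 24 did not pass the test. These 3 are 11.1% of the tested P450 genes. Over all 6604 tested genes 3.94% passed in either direction, 2.14% as higher and 1.8% as lower, and a share that rests on 3 genes is too coarse to be set firmly apart from that background. The signs leaned downward: 20 of 27 P450 genes had a log2 difference below 0, against 43.6% of all tested genes, with a median of -0.11 against 0.03. An unadjusted p under 0.05 was reached by 10 of 27 genes, against 18% of all tested genes, and in 10 of 27 the ranges of the 3 knockout and the 3 wild-type values did not overlap, against 24.1% of all tested genes. Cyp4a31 was the gene that did not reach the minimum, with a mean signal of 84.8 in knockout and 86.1 in wild-type livers.

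**Figure D1:**
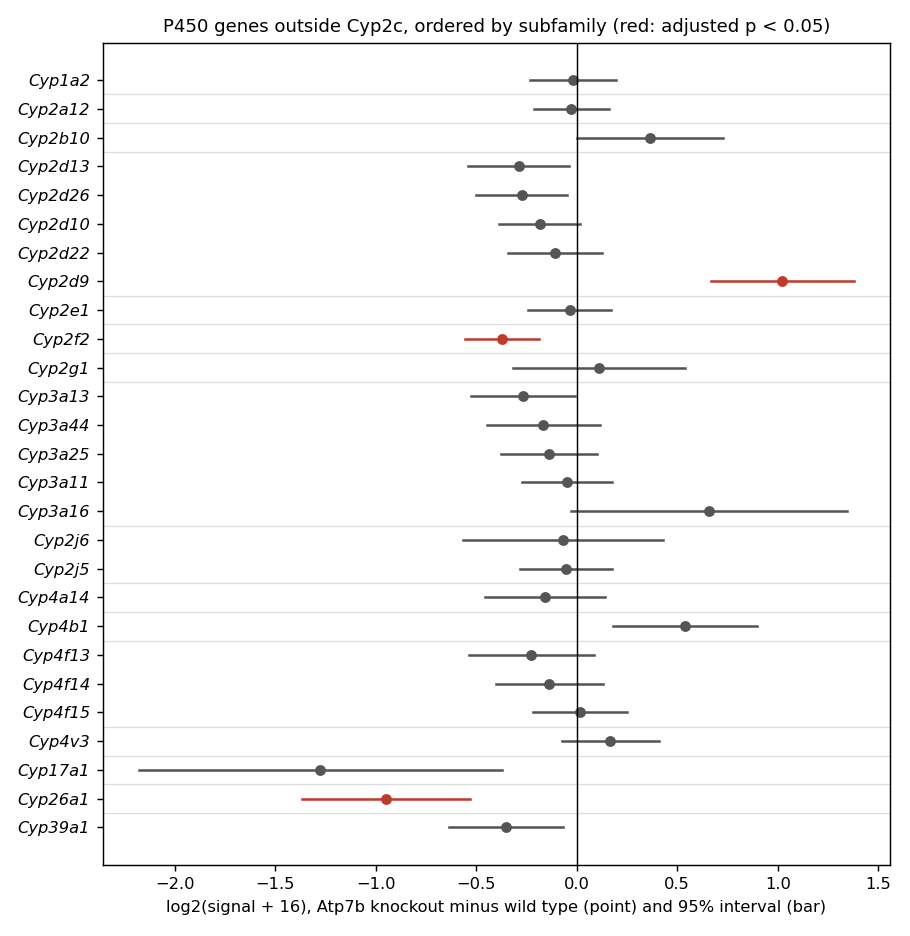
Log2 difference (knockout minus wild type) of each of the 27 tested P450 genes, with the 95% interval from limma, ordered by subfamily. Cyp2d9 stands to the right at 1.02, Cyp26a1 and Cyp2f2 stand to the left at -0.95 and -0.37, and the other genes are drawn in grey because they did not pass an adjusted p of 0.05.

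The Cyp2d subfamily hydroxylates many drugs and, in the mouse, steroids, and it gave the largest increase. Cyp2d9, a testosterone hydroxylase known in mice for its male-predominant, growth hormone-dependent expression, had signals of 3501, 4325 and 3712 in KO903, KO904 and KO905, against 2130.5, 2184 and 1418.5 in WT4, WT5 and WT6. Every knockout value lay above every wild-type value, and WT6 was the lowest of the 6. The means were 3846 ± 428 in knockout and 1911 ± 427 in wild-type livers (SD, n = 3 each), a 2.03-fold increase (log2 1.02 ± 0.16 SE, limma adjusted p = 0.00625). The call held when any 1 sample was left out, with log2 differences of 0.82 to 1.13 and adjusted p-values up to 0.0415.

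The other 4 Cyp2d genes had log2 differences below 0, and none of them passed. Cyp2d26 had 6376, 7189 and 5986 in the knockout livers and 7816, 7319 and 8472 in the wild-type livers (log2 -0.27 ± 0.10 SE, limma adjusted p = 0.185). Cyp2d10 had 5036, 4657 and 4541 in the knockout livers, against the close values 5333.5, 5397 and 5436 in the wild-type livers (log2 -0.18 ± 0.09 SE, limma adjusted p = 0.321). In both genes the groups did not overlap. Cyp2d13, annotated as a transcribed pseudogene in RefSeq, had log2 differences of -0.29 and -0.39 on its 2 probe sets, neither called, and the groups were apart on both. Cyp2d22 had -0.11 and -0.31 on its 2 probe sets, and only the dimmer of them separated the groups.

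**Figure D2:**
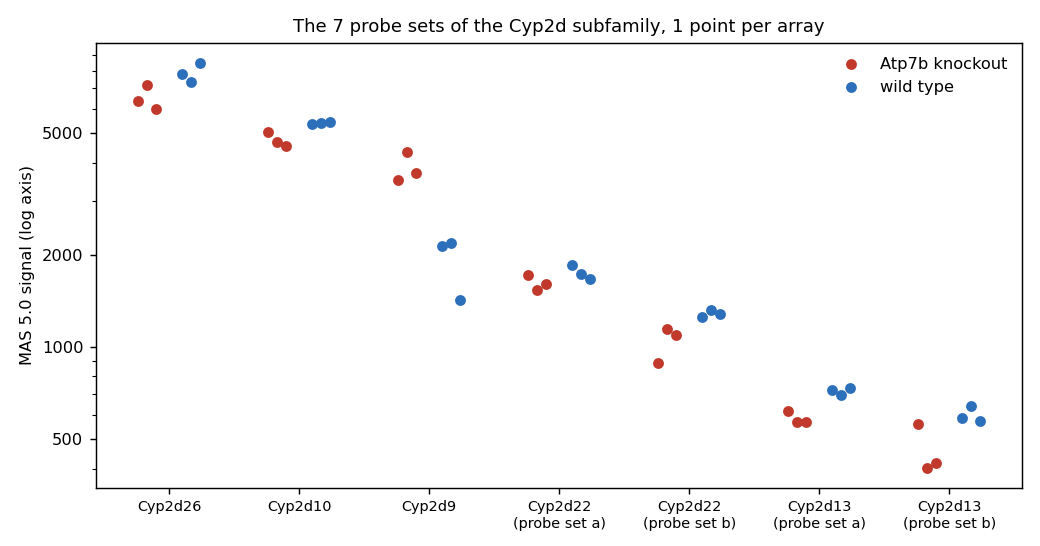
MAS 5.0 signals (log axis) of the 7 Cyp2d probe sets, with 1 point per array, knockout in red left of wild type in blue. The knockout points lie above the wild-type points in Cyp2d9 and below them or overlap with them in the other 6 probe sets.

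Cyp2d9 and Cyp2d10 are neighbours among the protein-coding P450 genes of chromosome 15, and their upstream sequences are alike, so the pair is shown to let the sequences be read beside the opposite signs. Aligned over 254 columns, the 250 bases before their RefSeq starts were 82.3% identical. The same windows were 51.6% identical between Cyp2d9 and Cyp2d26. Both are printed 5′ to 3′ on the strand of the gene from RefSeq build GRCm38.p6, with capitals at bases that differ from, or have no partner in, the other gene. The windows are chr15:82452127-82452376 on the plus strand for Cyp2d9 and chr15:82407195-82407444 on the minus strand for Cyp2d10.
Cyp2d9: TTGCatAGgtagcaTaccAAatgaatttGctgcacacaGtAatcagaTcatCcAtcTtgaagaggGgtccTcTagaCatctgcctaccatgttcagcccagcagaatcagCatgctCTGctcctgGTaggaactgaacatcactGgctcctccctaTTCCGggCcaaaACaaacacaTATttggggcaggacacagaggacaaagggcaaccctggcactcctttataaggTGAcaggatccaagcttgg
Cyp2d10: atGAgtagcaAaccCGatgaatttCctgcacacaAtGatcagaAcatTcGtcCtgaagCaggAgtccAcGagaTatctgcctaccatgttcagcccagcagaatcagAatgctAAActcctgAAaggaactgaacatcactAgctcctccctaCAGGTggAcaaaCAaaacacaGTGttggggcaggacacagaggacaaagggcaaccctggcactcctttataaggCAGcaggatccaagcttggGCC
Each sequence carries 41 capitals, and the block around the shared tataagg stretch before the start is largely in lower case. Searched on both strands, neither window held GCGTG, the core of the AHR response element, which 28.2% of all RefSeq promoter windows of that length hold. Neither held the nuclear receptor core AGGTCA, found in 13.8% of all windows. Nor was there a match to CCAAT, found in 34.5% of them. The Cyp2d9 probe set is of the type that reads several transcripts of 1 gene, and further Cyp2d genes with similar sequence, such as Cyp2d11 beside Cyp2d10 and Cyp2d12 beside Cyp2d9, had no probe set of their own among those used here. How far their transcripts reach the Cyp2d9 or Cyp2d10 signal was not tested.

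Cyp26a1, the hydroxylase that clears retinoic acid and is itself a known target of retinoic acid receptors, had the largest decrease among called P450 genes. Its signals were 388.9, 390.6 and 353.3 in the knockout livers, against 1007.6, 736.1 and 549.1 in the wild-type livers. The knockout values were close together and all lay below the lowest wild-type value, which was that of WT6. The means were 377.6 ± 21.1 in knockout and 764.3 ± 231 in wild-type livers (SD, n = 3 each), so that the signal was 1.93-fold lower in the knockout (log2 -0.95 ± 0.19 SE, limma adjusted p = 0.0203). Without WT4, the highest wild-type array, the log2 difference was -0.73 and the adjusted p was 0.0515. The call also ended without KO903, KO904 or KO905, with adjusted p-values up to 0.0791.

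The window before the Cyp26a1 start is printed because it holds a direct repeat of AGTTCA with 5 bases between the copies (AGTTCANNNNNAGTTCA), a form known as a retinoic acid response element. It lies at chr19:37697558-37697807 on the plus strand of GRCm38.p6, and the capitals mark the copies, read here on the opposite strand as TGAACT.
Cyp26a1: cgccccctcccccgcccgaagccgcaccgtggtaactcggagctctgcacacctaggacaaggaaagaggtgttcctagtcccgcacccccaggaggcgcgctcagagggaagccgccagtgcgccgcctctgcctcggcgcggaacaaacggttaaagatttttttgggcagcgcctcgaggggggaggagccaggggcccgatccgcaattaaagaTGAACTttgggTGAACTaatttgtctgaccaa
The repeat begins 32 bases before the RefSeq start. It was searched on both strands after this sequence had been seen, and it occurred in 6 of 27025 RefSeq promoter windows of 250 bases (0.0222%) and in 1 of the 21 P450 genes of this group with a promoter in that table. Cyp26a1 was the only tested gene among the 6. A match is a string of letters, and binding was not measured.

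Cyp2f2, an epoxide-forming enzyme known for activating naphthalene in mouse lung and liver, had 8934, 9176 and 9129 in the knockout livers and 11664, 12337 and 11311 in the wild-type livers. The groups did not overlap and the spread was small, 9079 ± 128 in knockout and 11770 ± 521 in wild-type livers (SD, n = 3 each). The change was modest, 1.3-fold lower in the knockout (log2 -0.37 ± 0.08 SE, limma adjusted p = 0.0332), and the call ended when any 1 of the 6 samples was left out (adjusted p 0.0551 to 0.112). Its neighbour among coding P450 genes on chromosome 7, Cyp2a12, a testosterone hydroxylase, had 8601 ± 212 in knockout and 8762 ± 354 in wild-type livers (SD, n = 3 each; log2 -0.03, 95% interval -0.21 to 0.16), a sign that turned under quantile normalization. In the promoter windows, 5 of the 21 P450 genes with a window held a match to AGGTCA, Cyp2f2 among them. Cyp26a1 held none of the 3 shorter motifs, and 3 of 21 genes held GCGTG and 9 of 21 held CCAAT. Of all RefSeq promoter windows 13.8% held AGGTCA, 28.2% held GCGTG and 34.5% held CCAAT.

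**Figure D3:**
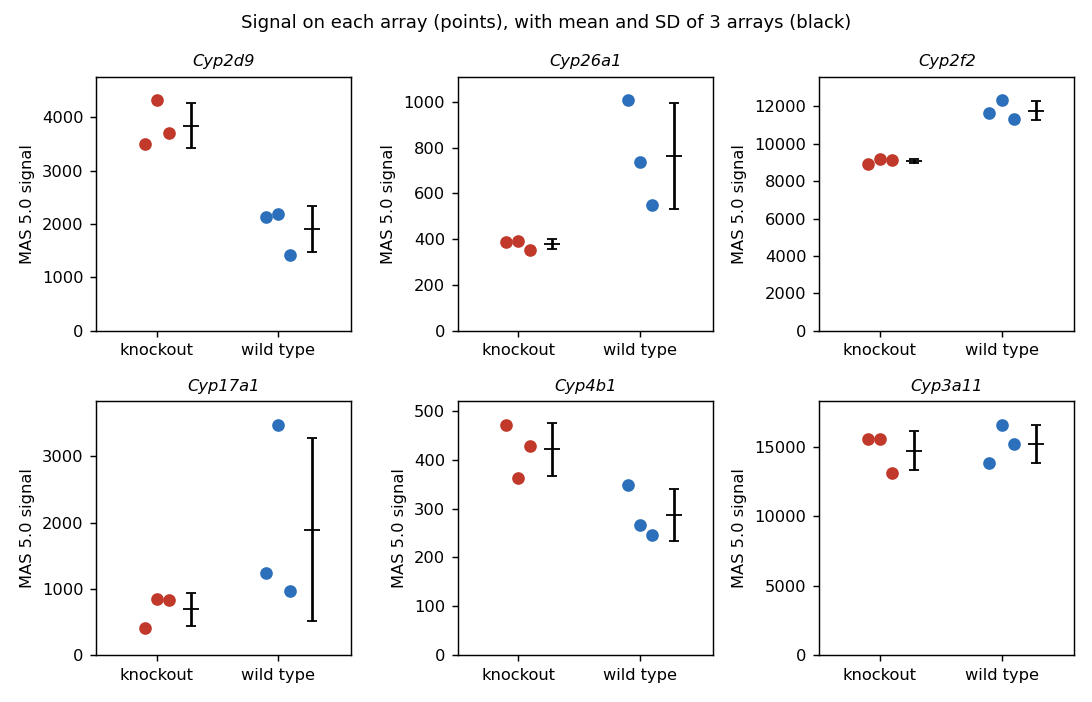
MAS 5.0 signal of Cyp2d9, Cyp26a1, Cyp2f2, Cyp17a1, Cyp4b1 and Cyp3a11 on each array (points) with the mean and SD of 3 arrays, knockout left of wild type. The groups are apart in the first 5 genes and overlap in Cyp3a11, and in Cyp17a1 a single wild-type array, WT5, stands at 3482.

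The enzymes that carry much of drug metabolism in mouse liver were not called, and their intervals were narrow. Cyp1a2, a target of AHR that oxidises caffeine and aromatic amines, had a log2 difference of -0.02 with a 95% interval of -0.23 to 0.195. For Cyp2e1, which oxidises ethanol and acetaminophen, the difference was -0.04, with an interval of -0.24 to 0.17. Cyp3a11, the PXR target that oxidises many drugs and bile acids, had 15557, 15563 and 13138 in the knockout livers and 13869, 16637 and 15252 in the wild-type livers, which overlapped (log2 -0.05, interval -0.27 to 0.18). Mean signals over 6 arrays were high, at 8401 for Cyp1a2, 16890 for Cyp2e1 and 15000 for Cyp3a11. Whether signals this bright understate a difference was not tested.

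Of the 5 tested Cyp3a genes none was called by limma (1 at an unadjusted p under 0.05, Cyp3a13), and 4 had differences below 0. Cyp3a13 had 1781, 2305 and 1982 in the knockout livers, all below the 2544, 2366 and 2366 of the wild-type livers (log2 -0.27 ± 0.12 SE, limma adjusted p = 0.261). Cyp3a25 and Cyp3a44 had -0.14 and -0.165, with overlapping groups. Cyp3a16, known in mice mainly from fetal and newborn liver, was uneven among the knockout livers, with 214.9 in KO903, 95.3 in KO904 and 294.8 in KO905, against 103.9, 97.9 and 133 in the wild-type livers (log2 0.66 ± 0.31 SE, limma adjusted p = 0.303). Without KO904 its difference was 1.08 and it passed (adjusted p = 0.0377).

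Cyp2b10, the classic CAR target, had 412.1, 344.2 and 327.6 in the knockout livers and 277.1, 332.8 and 226.4 in the wild-type livers, with KO905 below WT5 (log2 0.37 ± 0.16 SE, limma adjusted p = 0.274). Its other probe set had a difference of 0.27 (limma adjusted p = 0.481). Both probe sets are of the type that can read transcripts of several genes. The next coding P450 genes on that chromosome, Cyp2b13 and Cyp2b9, had no probe set of their own among those used here. How far their transcripts reach the Cyp2b10 signals was not tested. Cyp2g1, known from olfactory mucosa, had 318.1 ± 18 in knockout and 302 ± 96.9 in wild-type livers (SD, n = 3 each; log2 0.11, 95% interval -0.31 to 0.54).

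The 8 tested P450 genes of fatty acid and eicosanoid oxidation held no limma call (Cyp4b1 alone had an unadjusted p under 0.05), with differences from -0.23 to 0.54. Cyp4b1, which oxidises fatty acids and activates some lung toxicants, came closest: 472.7, 363.9 and 428.4 in the knockout livers, all above 348.3, 265.7 and 246.7 in the wild-type livers (log2 0.54 ± 0.16 SE, limma adjusted p = 0.0969). Cyp4a14, a fatty acid hydroxylase and PPARalpha target, had 4138, 4987 and 4310 in the knockout livers and 5124, 4096 and 5878.5 in the wild-type livers, which overlapped (log2 -0.16 ± 0.14 SE). The Cyp4f genes, hydroxylases of leukotrienes and long fatty acids, had differences of -0.23 (Cyp4f13), -0.14 (Cyp4f14) and 0.02 (Cyp4f15, a sign that turned under median centring). The arachidonic acid epoxygenase gene Cyp2j5 had -0.05 and -0.17 on its 2 probe sets, and Cyp2j6 had -0.07. Cyp4v3, whose human counterpart is mutated in a retinal dystrophy, had 0.17 and 0.28 on its 2 probe sets.

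The single genes of steroid hormone and oxysterol metabolism did not pass either. Cyp17a1, the hydroxylase and lyase on the path to androgens, had the lowest log2 difference of the 27 genes (-1.28 ± 0.41 SE, limma adjusted p = 0.12). Its signals were 402.7, 844.7 and 825.4 in the knockout livers and 1244, 3482 and 959 in the wild-type livers. The groups did not overlap, but WT5 was far above the other wild-type arrays and KO903 far below the other knockout arrays, and without WT5 the log2 difference was -0.72. Cyp39a1, an oxysterol hydroxylase of bile acid synthesis, had 593.4, 692.1 and 638.9 in the knockout livers, below the 855.7, 898.6 and 720.5 of the wild-type livers (log2 -0.35 ± 0.13 SE, limma adjusted p = 0.176).

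**Figure D4:**
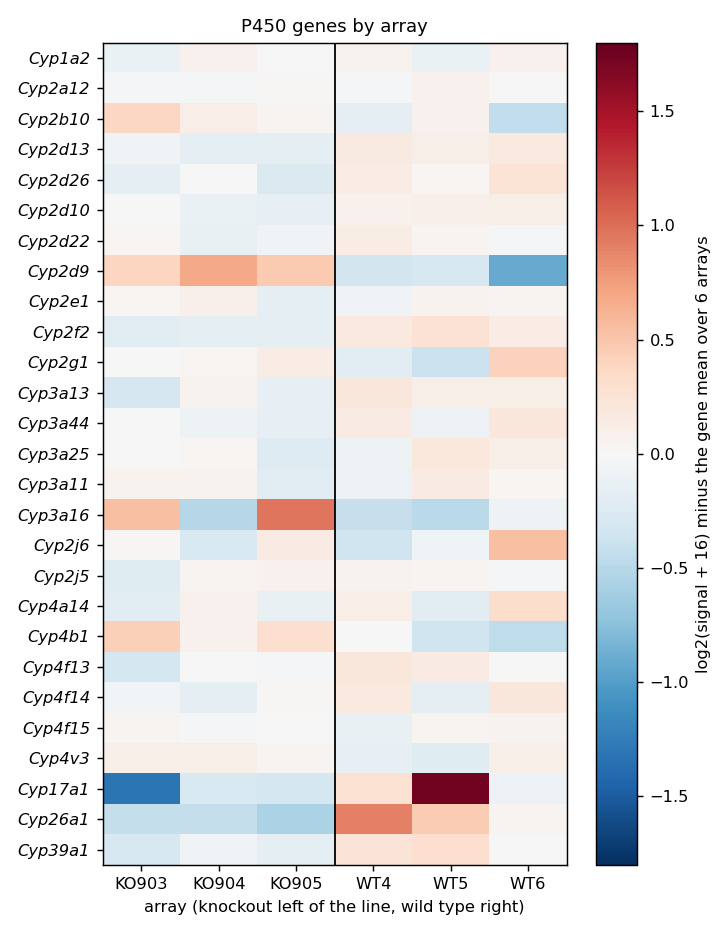
Log2(signal + 16) of the 27 tested P450 genes on each array, relative to the gene's mean over 6 arrays, knockout arrays left of the line and wild-type arrays right of it. Cyp2d9 is above its mean on all 3 knockout arrays, Cyp26a1 and Cyp2f2 are below theirs, and the strongest single cell is Cyp17a1 on WT5.

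Between arrays of a group the median P450 gene had an SD of 0.14 on the log2 scale, against 0.17 for the median of all tested genes. Among the wild-type livers the SD was largest for Cyp17a1 (0.98), Cyp2j6 (0.46) and Cyp26a1 (0.43), and smallest for Cyp2d10 (0.01). Among the knockout livers it was largest for Cyp3a16 (0.76) and Cyp17a1 (0.59). The median P450 gene stood at -0.01, 0.01 and -0.07 relative to its own mean in KO903, KO904 and KO905, against 0.06, 0.05 and 0.06 in WT4, WT5 and WT6. No single array set the lean toward lower values: leaving out each sample in turn left 18 to 20 of the 27 genes below 0.

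The genes that serve P450 enzymes held calls among those of heme supply and removal and none among the electron donors. Of 7 tested electron donors and partners none was called (1 at an unadjusted p under 0.05, Cyb5r3), with a median of -0.15. Only 1 of 7 lay above 0, while 43.6% of all tested genes had a difference below 0. Cytochrome b5 (Cyb5a) itself had 9735 in knockout and 10790 in wild-type livers on average (log2 -0.15 ± 0.09 SE). Of 11 tested genes of heme supply and removal, 1 rose and 1 fell (3 at an unadjusted p under 0.05). Their median was 0.12, and 7 of 11 lay above 0. Of all tested genes 3.94% were called and 18% had an unadjusted p under 0.05. Alad (log2 0.29, limma adjusted p = 0.269) was among the 3 but was not called. Alas1, the rate-limiting enzyme of heme synthesis in hepatocytes, had 2320, 3545 and 3342 in the knockout livers, against 5905, 7898 and 5805 in the wild-type livers (log2 -1.10 ± 0.17 SE, limma adjusted p = 0.00552). The groups were far apart, and the call held without any 1 sample (adjusted p up to 0.0171). Its second probe set had a difference of -0.79 and did not pass (adjusted p = 0.219). The biliverdin reductase gene Blvrb rose (log2 0.57 ± 0.12 SE, limma adjusted p = 0.0228). Later heme enzymes such as Fech (log2 0.05) and the heme oxygenase genes Hmox1 (log2 0.23) and Hmox2 (log2 -0.06) were not called.

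Among transcriptional regulators of P450 genes 5 of 25 tested fell and none rose, and 7 of 25 had differences above 0. An unadjusted p under 0.05 was reached by 10, of which only Nfe2l2 (log2 0.30) lay above 0. One of the 5, Nr1h4, lost its call under quantile normalization. The list had a median of -0.24, while 1.8% of all tested genes were called lower and the median was 0.03. The list was put together with earlier results of these data known, among them those of Ppara. Dbp, a clock-controlled transcription factor that binds promoters of P450 genes and of Alas1 in mouse liver, had 435.1, 714.8 and 456.3 in the knockout livers and 1403, 1343 and 1797 in the wild-type livers (log2 -1.50 ± 0.19 SE, limma adjusted p = 0.00162). Its related factor Tef fell as well (log2 -0.67 ± 0.13 SE, adjusted p = 0.0176), and the third member of that family, Hlf, had -0.61 and did not pass (adjusted p = 0.124). The hour at which the livers were taken is not in the labels, and its part in these values was not tested.

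Ppara fell (log2 -1.10 ± 0.15 SE, limma adjusted p = 0.00258), while its target Cyp4a14 was not called. Of 10 tested other targets Vnn1 rose and none was called lower, but 8 had differences below 0, with a median of -0.12 (3 at an unadjusted p under 0.05: Vnn1, Acot1 and Cpt1a). Acot1, an acyl-CoA thioesterase, had 148.6, 98.4 and 199.7 in the knockout livers, all below the 240.6, 275.7 and 414.9 of the wild-type livers, and lay at the threshold (log2 -1.0 ± 0.25 SE, limma adjusted p = 0.0502). A probe set annotated to both genes (Acot2;Acot1), which the rule on single symbols left out of the list, was called lower (log2 -1.01, adjusted p = 0.0214). Cpt1a, which brings long fatty acids into mitochondria, had a difference of -0.29 (adjusted p = 0.136). The call of Vnn1 was lost when KO903 was left out, or KO905 (adjusted p up to 0.0912). Ahr fell (log2 -0.59 ± 0.14 SE, adjusted p = 0.0404), with 711.7 in knockout and 1075 in wild-type livers on average, while its target Cyp1a2 was not called; a second Ahr probe set had -0.10 (adjusted p = 0.826). Nr1h4, the bile acid receptor FXR, was called lower (log2 -0.52, adjusted p = 0.0468), but not under quantile normalization (log2 -0.51, adjusted p = 0.0505). The receptors CAR (Nr1i3, log2 0.11, limma adjusted p = 0.76) and PXR (Nr1i2, log2 -0.31, adjusted p = 0.448) were not called, nor was any of 9 tested non-P450 targets of these receptors (4 at an unadjusted p under 0.05). Of those 4, Gsta2 (log2 0.57) and Abcb1a (log2 0.50) lay above 0, and Abcc2 (log2 -0.82) and Slco1a4 (log2 -0.61) below. The 2 tested non-P450 targets of AHR were not called either. Tiparp (log2 -0.45) had an unadjusted p under 0.05, and Nqo1 (log2 0.38) did not. Leaving out 1 sample ended the calls of Ahr and Nr1h4 for any sample except WT5 (adjusted p up to 0.138 and 0.147), that of Tef for KO903, KO905, WT4 or WT6 (up to 0.0786) and that of Blvrb for KO903, KO904 or WT6 (up to 0.103).

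**Figure D5:**
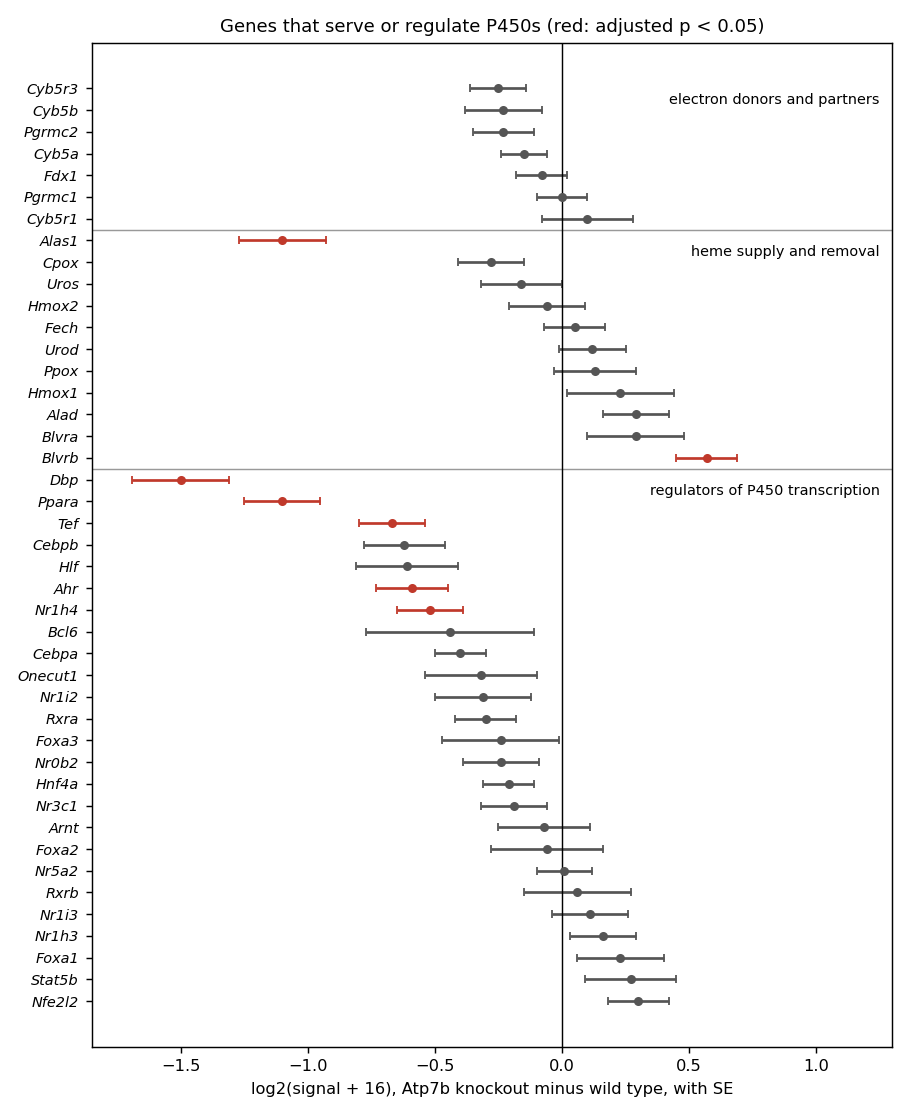
Log2 difference (knockout minus wild type, points) with its standard error (bars) for electron donors and partners, heme supply and removal, and regulators of P450 transcription. Red points passed an adjusted p of 0.05: Alas1 and 5 regulators lie left of 0, and Blvrb lies right of it.

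Many liver P450 genes differ between the sexes and between lobule zones, so markers of both were read beside them. The labels give no sex. Xist, transcribed from the inactive X chromosome of female cells, was measured by 3 probe sets. The brightest read 4284, 3617 and 3887 in the knockout livers and 2942.5, 4048 and 3529 in the wild-type livers, which overlapped. On every array of both groups this signal lay far above the median signal of that array. No sample of either group therefore lacked this transcript of female cells. Whether any sample also held RNA of males was not tested. The other 2 probe sets had log2 differences of -0.53 and -0.61 (limma adjusted p = 0.202 and 0.282). Of 5 tested male-predominant genes outside the P450s, Gstp1 rose (log2 0.57 ± 0.11 SE, adjusted p = 0.0154) and none was called lower. Mup3 (log2 -0.36) and Egfr (log2 -0.24) lay below 0. That list had a median of 0.25, with 2 of 5 genes at an unadjusted p under 0.05, the other being Slco1a1 (log2 0.49, adjusted p = 0.12). Of 7 tested female-predominant genes, Prom1 rose (log2 1.12) and Acot3 fell (log2 -1.09). Their median was -0.24, and 5 of 7 had an unadjusted p under 0.05, among them Sult3a1 (log2 -0.52), Slc22a26 (log2 -0.48) and Hao2 (log2 0.38), which were not called. Among all tested genes 2.14% were called higher, 1.8% were called lower and 18% had an unadjusted p under 0.05. Gstp1 lost its call when KO904 was left out, or WT6 (highest adjusted p 0.0708). Leaving out 1 sample ended that of Acot3 for any sample except WT5 (up to 0.156), but not that of Prom1.

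Pericentral genes outside the P450s, which share the zone where most drug-metabolising P450s are made, held 1 call among 10: Glul fell (log2 -0.40 ± 0.09 SE, limma adjusted p = 0.04), a call that ended without any 1 of the 6 samples, and its second probe set had -0.13. The median of that list was 0.17, and 8 of 10 had differences above 0. An unadjusted p under 0.05 was reached by 4 of 10. Besides Glul these were Slc1a2 (log2 0.50), Avpr1a (log2 0.39) and Lect2 (log2 0.25), all above 0 and not called. For both zones the shares over all tested genes were 3.94% called and 18% at an unadjusted p under 0.05. Among 7 periportal genes the median was -0.08 and 4 of 7 had an unadjusted p under 0.05. Of these 4, Cdh1 (log2 0.78) and Aldh1b1 (log2 0.60) were not called, while Hal rose (log2 0.56) and Asl fell (log2 -0.67). Those calls ended without KO903, KO904, KO905 or WT4 for Hal (adjusted p up to 0.128) and without any sample except WT6 for Asl (up to 0.148).

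In whole-liver RNA, fewer cells of a type and less RNA per cell cannot be told apart. No marker of other liver cells was called except the erythroid gene Alas2, which had 814.3 in knockout and 397.9 in wild-type livers on average (log2 1.0 ± 0.13 SE, limma adjusted p = 0.00183). All 9 tested Kupffer cell markers had differences above 0 and none was called by limma (4 at an unadjusted p under 0.05), with summed signals of 6142 to 8248 in knockout and 4446 to 6239 in wild-type livers. The 8 tested sinusoidal endothelial markers, 7 of them above 0 and none called (6 at an unadjusted p under 0.05), summed to 4560 to 5634 in knockout and 3525 to 4048 in wild-type livers. The marker below 0, Lyve1 (log2 -0.56, limma adjusted p = 0.202), was among those 6. Over all tested genes 18% had an unadjusted p under 0.05 and 43.6% a difference below 0. Stellate cell, lymphocyte and neutrophil lists had 4, 2 and 1 tested genes, and the defining markers of cholangiocytes and adrenal cortex were not analysed here. No tested marker was at 0. The part of these markers in the P450 differences was not tested.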

How the data were processed

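The authors deposited 1 linear intensity per probe set and array, made with MAS 5.0 and scaled globally to a target of 350, per the labels. The sources used here do not say how the table's 11811 probe sets were selected. MAS 5.0 subtracts mismatch signals, so low signals are noisy, and detection calls were not used. Gene symbols came from GEO's platform annotation, and all 28 P450 genes were found by Entrez identifier in a RefSeq table of GRCm38.p6, with 0 symbols changed. The 33 control probe sets and 1158 with a mean signal under 100 were left out. The remaining 10620 were fitted on log2(signal + 16), where 16 is the pseudocount, with limma 3.58.1 in R 4.3.3 (lmFit and trended eBayes). Its two-sided p-values were adjusted by Benjamini-Hochberg, with a threshold of 0.05; standard errors and 95% intervals are limma's. The number of arrays limits the precision, and no exact permutation test of 3 against 3 samples can go below 0.1. At most 0.0849% of values were identical between 2 arrays. Samples were grouped by title and not paired, since sample numbers do not match between groups.

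Named with values were every called P450 gene, the brightest gene and that with the smallest p in each subfamily, and every P450 gene at an unadjusted p under 0.05. The members, gene lists and this rule were chosen with earlier results of these data known. Promoter windows of 250 bases came from RefSeq (21 of 28 genes matched) and were aligned with Biopython 1.88. Figures were drawn with matplotlib 3.10.9 in Python 3.11.15. The fit was tested on simulated data. Alternatives were quantile normalization, median centring, pseudocounts of 1 and 64, no minimum signal or one of 200, untrended and robust eBayes, array weights, averaging a gene's probe sets, leaving out each sample, and a threshold of 0.1.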

Additional observations from a re-analysis of the deposited data

How the results depend on the processing

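The call of Cyp2d9 held under each alternative run, and those of Cyp26a1 and Cyp2f2 under each except those named here. Leaving out each sample in turn gave 1 to 2 called P450 genes, 1 to 2 higher and 0 to 1 lower, since the call of Cyp26a1 ended without KO903, KO904, KO905 or WT4, that of Cyp2f2 without any 1 sample, and Cyp3a16 passed without KO904. eBayes without the intensity trend left 1 lower gene (Cyp2f2 had an adjusted p of 0.122), and at a threshold of 0.1 there were 2 higher genes, the second being Cyp4b1. The median log2 difference of the P450 genes was -0.137 at a minimum signal of 200 and -0.137 with the mean over probe sets, and -0.115 to -0.071 with 1 sample left out; fewer genes or samples, or other probe sets, enter there by construction. With median centring 21 of 27 genes were below 0 and Cyp4f15 turned to that side, and with quantile normalization Cyp2a12 turned above 0; neither was called. Among genes that serve P450 enzymes, Nr1h4 lost its call under quantile normalization (adjusted p = 0.0505). No paired analysis was possible because the groups share no sample numbers. With 3 arrays per group and no detection calls, low signals such as those of Cyp3a16 and Cyp4a31 bear no firm statement.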

Other observations

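Genes of retinoid handling and signalling were read beside Cyp26a1, in a list put together after its value was seen. Of 25 tested genes none was called higher and 1 lower, with a median log2 difference of 0.01 against 0.03 over all tested genes. Of all tested genes 2.14% were called higher and 1.8% lower. An unadjusted p under 0.05 was reached by 6 of 25, against 18% of all tested genes. Besides the called gene these were Adh4 (log2 0.51), Rdh16 (log2 0.48), Tgm2, Rxra (log2 -0.30) and Rdh9 (log2 -0.29). Known targets of retinoic acid receptors were not called: Rarb averaged 191.3 in knockout and 190.2 in wild-type livers, Dhrs3 had a log2 difference of 0.16 ± 0.15 (SE) and Tgm2 one of 0.34 ± 0.14 (SE; limma adjusted p = 0.221). Rbp4 and Ttr, the plasma carriers of retinol, had log2 differences of 0.02 and 0.03, and the retinaldehyde dehydrogenase gene Aldh1a1 one of -0.03. The gene that fell was Fabp5, a carrier of fatty acids and retinoic acid, with 2360, 877.9 and 2287 in the knockout livers and 6720, 5593 and 4429 in the wild-type livers (log2 -1.70 ± 0.31 SE, limma adjusted p = 0.0136), and its second probe set fell too (log2 -2.11, adjusted p = 0.0106).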
